A study of Mus musculus with 12 samples.

Results

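The genes described here are 9 genes of glucose production and glycolysis in the liver, chosen by name with earlier results of these data known. They are *Pcx*, *Pck1*, *Fbp1* and *G6pc* for gluconeogenic enzymes, *Pklr* and *Pfkfb1* for glycolytic enzymes, *Slc2a2* for the glucose transporter, and *Ppargc1a* and *Mlxipl* for transcriptional regulators. All 9 passed the filter on low counts and were tested among 14670 genes, out of 36047 genes with a transcript in the tables. The livers came from 12 male C57Bl/6J mice that were 5 to 6 months old, had eaten 1 of 4 diets for 7 days and had been without food for 4 h when euthanized. The paper also describes deuterium labeling of its mice, by an injection of heavy water and then through the drinking water. RF.Ctrl mice ate a regular-fat diet (18% of energy as fat) and HF.Ctrl mice a high-fat diet (60% of energy as fat). RF.SAAR and HF.SAAR mice ate the same fat levels with sulfur amino acid restriction (SAAR), in which methionine was lowered and glutamic acid added in its place. None of the 4 diets held cysteine, the control diets included, and each group had 3 mice. The regular-fat and the high-fat diets came from different suppliers, so fat level and supplier cannot be told apart here.

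Gluconeogenesis makes glucose from lactate, amino acids and glycerol, and liver runs it between meals. Pyruvate carboxylase (*Pcx*) turns pyruvate into oxaloacetate, phosphoenolpyruvate carboxykinase (*Pck1* in the cytosol, *Pck2* in mitochondria) turns oxaloacetate into phosphoenolpyruvate, fructose bisphosphatase (*Fbp1*) bypasses phosphofructokinase, and glucose-6-phosphatase (*G6pc*) releases free glucose. Liver pyruvate kinase (*Pklr*) runs the opposing last step of glycolysis, and its transcription is known to rise with dietary carbohydrate and insulin. The *Pfkfb1* enzyme makes and breaks down fructose 2,6-bisphosphate, the signal that sets the balance of glycolysis and gluconeogenesis. GLUT2 (*Slc2a2*) carries glucose across the hepatocyte membrane in either direction, PGC-1α (*Ppargc1a*) is a coactivator induced by fasting, and ChREBP (*Mlxipl*) is the carbohydrate-responsive factor that acts on *Pklr*.

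*Ppargc1a* rose and *Pklr* fell with SAAR over the 2 fat levels, and the other 7 genes did not pass the test in any comparison. These 2 of 9 members stand beside 6.92% of all tested genes that passed over both fat levels (3.22% higher, 3.7% lower). Within the high-fat diets, 1 of 9 members passed, where 1.97% of all tested genes did (1.01% higher), and *Ppargc1a* was 2.27-fold higher in HF.SAAR than in HF.Ctrl livers. Within the regular-fat diets 0 of 9 members passed, where 1.49% of all tested genes did, and *Pklr* was the member farthest from 0, at 0.443 of its RF.Ctrl level. Outside the 9 genes, mitochondrial *Pck2* rose with SAAR on either fat level while cytosolic *Pck1* did not pass, and the fructose transporter *Slc2a5* fell on either fat level.

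The promoters of *Pklr* and *Pck2*, which carry these results, are shown beside those of *Pck1* and *G6pc*, gluconeogenic enzymes that did not pass, with the short motifs found in them. The sequences are those of RefSeq, build GRCm38.p6, and each is the 250 bases before an annotated start site, read 5′ to 3′ on the plus strand, on which all these genes lie. *Pklr* is shown at both of its starts, since the red cell (R) and liver (L) forms of the enzyme come from different promoters. Capitals mark a match to the carbohydrate response element (ChoRE) at the L start, ACGTCA (the core of a cAMP response element) in *Pck1*, TGATGCA (an ATF4 core) in *G6pc*, and AGGTCA (a nuclear receptor motif) in *G6pc* and at the *Pklr* R start, each searched on both strands.
Pklr L start, chr3:89136373-89136622: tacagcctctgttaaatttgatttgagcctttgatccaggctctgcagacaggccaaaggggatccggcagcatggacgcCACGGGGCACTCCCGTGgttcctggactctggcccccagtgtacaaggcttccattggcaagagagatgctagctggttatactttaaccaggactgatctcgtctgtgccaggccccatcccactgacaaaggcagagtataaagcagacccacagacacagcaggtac
Pklr R start, chr3:89135892-89136141: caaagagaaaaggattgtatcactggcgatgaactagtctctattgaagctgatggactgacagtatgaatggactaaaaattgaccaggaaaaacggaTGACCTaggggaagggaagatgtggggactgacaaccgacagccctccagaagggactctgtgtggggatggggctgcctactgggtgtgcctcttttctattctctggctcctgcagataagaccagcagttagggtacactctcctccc
Pck1, chr2:173152823-173153072: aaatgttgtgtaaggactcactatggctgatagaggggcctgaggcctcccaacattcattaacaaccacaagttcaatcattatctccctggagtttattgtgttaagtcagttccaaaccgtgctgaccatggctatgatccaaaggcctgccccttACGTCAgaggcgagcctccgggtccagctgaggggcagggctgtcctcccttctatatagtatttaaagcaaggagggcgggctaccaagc
G6pc, chr11:101367466-101367715: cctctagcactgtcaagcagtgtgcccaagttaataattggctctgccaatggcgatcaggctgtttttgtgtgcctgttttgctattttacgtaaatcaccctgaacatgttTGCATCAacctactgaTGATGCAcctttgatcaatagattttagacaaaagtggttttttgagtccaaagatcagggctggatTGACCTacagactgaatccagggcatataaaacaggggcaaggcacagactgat
Pck2, chr14:55540016-55540265: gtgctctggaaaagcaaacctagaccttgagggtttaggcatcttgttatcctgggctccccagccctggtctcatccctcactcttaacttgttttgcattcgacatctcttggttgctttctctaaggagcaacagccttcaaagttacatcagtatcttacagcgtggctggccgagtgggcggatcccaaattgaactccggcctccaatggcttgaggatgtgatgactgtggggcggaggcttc

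The ChoRE match lay 170 to 154 bases before the RefSeq L start of *Pklr* at 89136623, and 39 of 32851 mouse promoters of 300 bases (0.119%) hold one. This motif was searched for after the promoters had been read, so its share does not measure how unexpected the *Pklr* match was. The *Pck1* match to ACGTCA lay 91 to 86 bases before the start, and 7.51% of promoters hold one, that of the upstream *Ppargc1a* start included. The TGATGCA matches of *G6pc* lay 137 to 131 bases before the RefSeq start at 101367716 on the minus strand and 121 to 115 bases before it on the plus strand, and 3.15% of promoters hold one. The only *G6pc* transcript counted here begins upstream of that, at 101367561, so all matches marked in *G6pc* lie downstream of its start. AGGTCA is common, with a match in 16.3% of promoters, and *Slc2a2*, *Pfkfb1* and the downstream start of *Pcx* also held one. No match was found to the FOXO core TGTTTAC (3.65% of promoters) in any of these promoters, nor to any of the searched motifs in *Pck2*. The E-box CACGTG (7.15% of promoters) was found in *Pcx* and at the upstream start of *Mlxipl*. These matches describe letters in a window and were not tested for binding.

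The libraries held 16203094 to 21230092 estimated counts per mouse. Hepatocyte marker genes had summed CPM (counts-per-million of the library) of 101825 to 117437 for RF.Ctrl, 89475 to 96912 for RF.SAAR, 95920 to 109174 for HF.Ctrl and 90731 to 102478 for HF.SAAR. Pancreatic acinar genes, 34 of 34 found, summed to between 43.9 and 103 CPM in 7 livers and to more than 1000 CPM in 5 livers (RF.Ctrl 1, HF.Ctrl 1 and 2, HF.SAAR 2 and 3), with the highest sum, 19674 CPM, in the HF.SAAR group. Islet genes summed to at most 33.5 CPM. Over all tested genes, 88 rose and 130 fell in RF.SAAR when compared to RF.Ctrl, 148 rose and 141 fell in HF.SAAR when compared to HF.Ctrl, and 472 rose and 543 fell with SAAR over both fat levels (edgeR quasi-likelihood test, adjusted p under 0.05). With library size as the only scaling, the median of all genes stood at 0.16 to 0.17 on the log2 scale in the SAAR comparisons and the splits became 359 and 66, 639 and 80, and 2175 and 274. No gene passed between HF.Ctrl and RF.Ctrl by edgeR, where 527 genes had an unadjusted p under 0.05 and DESeq2 called 31.

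The members differed in level by more than 2 orders of magnitude. Per transcript length, the median over 12 mice was 953 TPM (transcripts-per-million) for *Pck1* and 843 TPM for *Fbp1*, and the ranges of these genes over the 12 mice, 434 to 1517 TPM and 595 to 924 TPM, overlapped. *G6pc* followed at 136 TPM, *Slc2a2* at 107 TPM, *Pklr* at 96.0 TPM, *Mlxipl* at 95.9 TPM and *Pcx* at 80.7 TPM, and the ranges of neighbours in this order overlapped as well. *Pfkfb1* was lower, at 35.5 TPM, with its highest mouse at 45.9 TPM under the lowest mouse of *Pcx* at 56.2 TPM. *Ppargc1a* was the lowest member, at 2.38 TPM and at most 4.58 TPM.

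**Figure D1:**
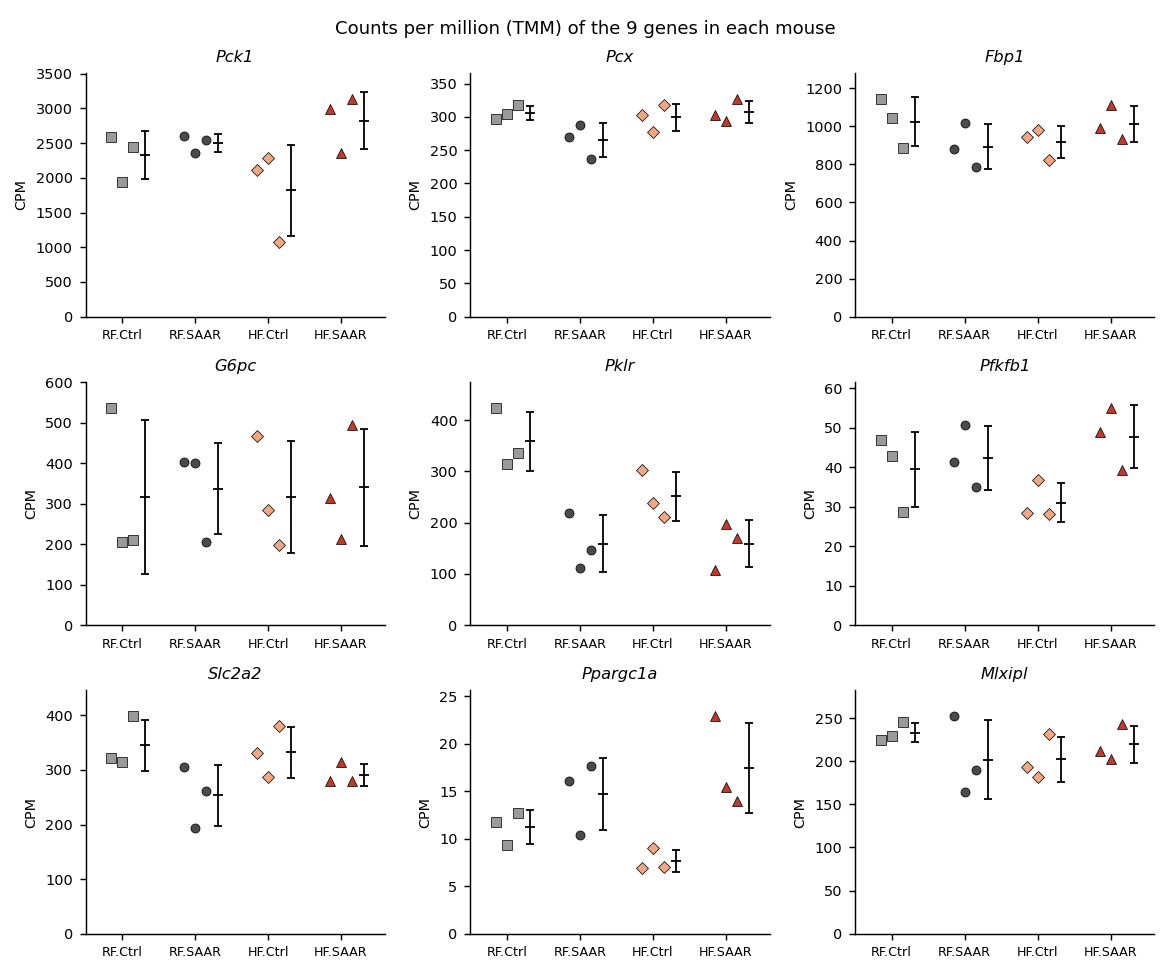
Level of each of the 9 genes in every liver. The y axis is CPM scaled by TMM factors and starts at 0, each symbol is 1 mouse of RF.Ctrl, RF.SAAR, HF.Ctrl or HF.SAAR, and the bar beside each group is its mean ± SD (n = 3). All SAAR mice lie below the Ctrl mice of the same fat level for *Pklr*, and all HF.SAAR mice lie above all HF.Ctrl mice for *Ppargc1a*.

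*Ppargc1a* (ENSMUSG00000029167, chr5:51454250-51567726, minus strand, GRCm38) was counted at 11.7, 9.31 and 12.8 CPM in the RF.Ctrl mice and at 16.1, 10.4 and 17.7 CPM in the RF.SAAR mice. Its HF.Ctrl values were 6.89, 9.01 and 7.07 CPM, and its HF.SAAR values were 22.9, 15.4 and 14.0 CPM. The HF groups stood apart, with the lowest HF.SAAR mouse at 14.0 CPM and the highest HF.Ctrl mouse at 9.01 CPM, while 1 RF.SAAR mouse lay within the RF.Ctrl range. *Ppargc1a* rose by 1.18 ± 0.23 (SE) on the log2 scale in HF.SAAR when compared to HF.Ctrl (edgeR adjusted p = 0.0185). The difference on the regular-fat diets was 0.39 ± 0.22 (adjusted p = 0.515). Over both fat levels the rise was 0.79 ± 0.16 (adjusted p = 0.0107).

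The lowest levels of *Ppargc1a* were those of HF.Ctrl livers. The HF.Ctrl mice all lay below the RF.Ctrl mice, with means of 7.66 and 11.3 CPM, but this difference of −0.55 ± 0.23 on the log2 scale did not pass (adjusted p = 0.9996, unadjusted p = 0.0330). The HF.SAAR and RF.SAAR mice overlapped, at means of 17.4 and 14.7 CPM. The test of whether SAAR acted differently on the 2 fat levels gave a difference of 0.80 ± 0.32 that did not pass over all genes (adjusted p = 0.999, unadjusted p = 0.0272). The call on the high-fat diets was lost without HF.Ctrl 1 (adjusted p = 0.0961), without HF.Ctrl 3 (adjusted p = 0.0823) or without HF.SAAR 1 (adjusted p = 0.0728), whereas the call over both fat levels held without each mouse in turn. Without the 5 livers rich in acinar transcripts the differences were larger, 1.67 on high fat and 1.05 over both fat levels, and neither passed (adjusted p = 0.268 and 0.0782), with 1 mouse left in each HF group.

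Transcripts that began at 51553871 to 51553922 held 73.5 to 100% of the *Ppargc1a* TPM, at 1.02 to 4.58 TPM. Those from the upstream start at 51567704 to 51567726 reached at most 0.735 TPM and 0.940 CPM, and held 26.5% in RF.Ctrl 3, 23.7% in HF.Ctrl 2, 12.3% in HF.Ctrl 1, 7.32% in RF.SAAR 2 and 0% elsewhere. The RefSeq promoter table held only the upstream start, so no *Ppargc1a* promoter is shown. The most abundant transcript alone differed by 1.25 on the high-fat diets (adjusted p = 0.0856).

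*Pklr* (ENSMUSG00000041237, chr3:89136142-89146784, plus strand) moved the other way. The RF.Ctrl mice had 424, 315 and 337 CPM and the RF.SAAR mice 219.5, 111 and 147 CPM. The HF.Ctrl mice had 303, 239 and 212 CPM and the HF.SAAR mice 108, 197 and 171 CPM. In CPM every SAAR mouse lay below every Ctrl mouse of the same fat level, which was so in the same direction on either fat level for 6.28% of all tested genes. In TPM the HF groups overlapped, at 75.1 to 138 TPM in HF.Ctrl and 49.5 to 88.3 TPM in HF.SAAR. *Pklr* fell by 0.92 ± 0.19 (SE) on the log2 scale over both fat levels (edgeR adjusted p = 0.0161), to 0.529 of the control level.

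Within a fat level the *Pklr* difference did not pass by edgeR. It was −1.17 ± 0.27 on the regular-fat diets (adjusted p = 0.0652, 95% confidence interval −1.77 to −0.57) and −0.66 ± 0.27 on the high-fat diets (adjusted p = 0.327). DESeq2 called the regular-fat difference, at −1.16 with an adjusted p of 0.000232, as did edgeR without RF.SAAR 1 (−1.48, adjusted p = 0.0269) or without HF.SAAR 1 (−1.17, adjusted p = 0.0351). The HF.Ctrl mice lay below the RF.Ctrl mice, with a difference of −0.51 ± 0.27 (adjusted p = 0.9996), and the SAAR groups had almost the same mean, 159 CPM each. The interaction of diet and fat was 0.51 ± 0.38 (adjusted p = 0.999). The call over both fat levels held without each mouse in turn and was lost without the 5 acinar-rich livers (−1.01, adjusted p = 0.142).

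The transcripts of *Pklr* fell into groups by start site, with the R start at 89136142 and the first L start 430 bases downstream at 89136572. The L group ran from 89136572 to 89136623. The L promoter shown above ends before the last of these, the RefSeq start, so its window reaches into transcripts that begin at 89136572. The L-start transcripts made up 68.8 to 95.1% of the *Pklr* TPM in each liver. They summed to 381, 202 and 241 CPM in the RF.Ctrl mice and to 144, 79.4 and 100.5 CPM in the RF.SAAR mice, with no overlap. They summed to 202, 226 and 151 CPM in the HF.Ctrl mice and to 99.6, 165 and 127 CPM in the HF.SAAR mice, where 1 mouse of each group lay within the range of the other. The R-start transcripts overlapped within either fat level, at 43.3 to 114 CPM in RF.Ctrl, 31.5 to 75.2 CPM in RF.SAAR, 13.1 to 101 CPM in HF.Ctrl and 8.36 to 43.4 CPM in HF.SAAR. Their split from the L form rests on the estimate that assigns reads to transcripts sharing most exons.

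Since the R form of pyruvate kinase belongs to red cells, erythroid markers were measured beside it. Of 8 listed genes 7 were found, and none was at 0 in every mouse. Their sum was 594 to 672 CPM in RF.Ctrl, 318 to 393 CPM in RF.SAAR, 444 to 468 CPM in HF.Ctrl and 243 to 554 CPM in HF.SAAR, so it was lower with SAAR on the regular-fat diets, without overlap. *Alas2*, the erythroid enzyme that starts heme synthesis, fell by 1.15 ± 0.09 over both fat levels (adjusted p = 9.02e-06). The α-globin genes *Hba-a1* and *Hba-a2* are near-identical copies, so their split is uncertain. The part of red cell RNA in the *Pklr* result was not tested. The summed hepatocyte markers given above were also lower with SAAR on the regular-fat diets, without overlap, and 2 of them, *Serpina1c* (−0.52, adjusted p = 0.000522) and the fibrinogen gene *Fgb* (−0.26, adjusted p = 0.0172), fell over both fat levels. Most of the sum was *Alb*, with medians of 62874 CPM in RF.Ctrl and 51934 CPM in RF.SAAR. The medians of *Hnf4a* (459 and 519 CPM), *Apob* (4377 and 4383 CPM) and *Ass1* (2132 and 2214 CPM) were not lower in RF.SAAR, while those of the other markers found were. On high fat the *Ass1* median was 1937 CPM in HF.Ctrl and 2711 CPM in HF.SAAR. The part of the hepatocyte markers in the *Pklr* result was not tested, and *Serpina1c* has near-identical copies. In bulk liver, fewer cells of a type and less RNA per cell cannot be told apart.

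**Figure D2:**
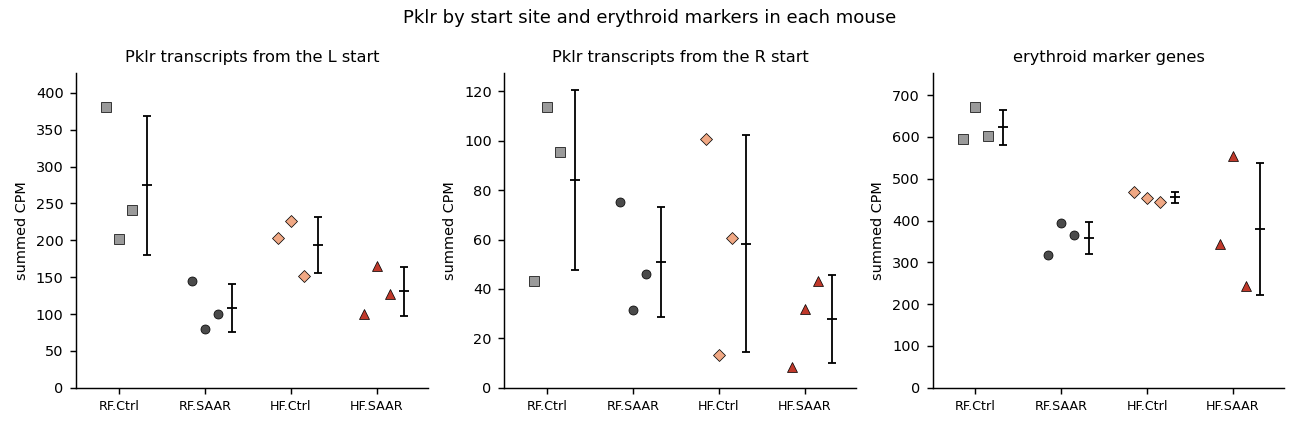
Summed CPM of *Pklr* transcripts from the liver (L) start, of those from the red cell (R) start, and of the erythroid marker genes in every liver. Each y axis starts at 0, each symbol is 1 mouse and the bars are mean ± SD (n = 3). The L-start sums are separate between RF.Ctrl (202 to 381 CPM) and RF.SAAR (79.4 to 144 CPM), and the R-start sums overlap on either fat level.

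The gluconeogenic enzymes did not pass in any comparison. *Pck1* (ENSMUSG00000027513, chr2:173153048-173159273), whose promoter is shown above, was counted at 2594, 1944 and 2448 CPM in RF.Ctrl and at 2611, 2358 and 2548 CPM in RF.SAAR. On high fat it stood at 2113, 2286 and 1072 CPM in HF.Ctrl and at 2993, 2353 and 3132 CPM in HF.SAAR. The HF.SAAR mice all lay above the HF.Ctrl mice, by a narrow gap of 2353 to 2286 CPM, while the RF groups overlapped. The differences were 0.63 ± 0.24 on high fat (adjusted p = 0.269), 0.11 ± 0.23 on regular fat (adjusted p = 0.923) and 0.37 ± 0.17 over both (adjusted p = 0.242). Without the 5 acinar-rich livers *Pck1* passed over both fat levels, at 0.83 (adjusted p = 0.0204), in a fit whose high-fat groups were single mice, HF.Ctrl 3 at 1072 CPM and HF.SAAR 1 at 2993 CPM.

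*G6pc* (ENSMUSG00000078650, chr11:101367561-101377903) varied widely among mice of 1 diet. The RF.Ctrl mice had 537, 207 and 209.5 CPM and the RF.SAAR mice 404, 401 and 207 CPM. The HF.Ctrl mice had 469, 286 and 198 CPM and the HF.SAAR mice 313, 212 and 496 CPM. The lowest mouse of each group lay between 198 and 212 CPM and the highest between 404 and 537 CPM, and the coefficient of variation within groups ran from 33.4 to 59.8%. The group means were 317 to 340 CPM, and the SAAR difference over both fat levels was 0.09 ± 0.36, with a 95% confidence interval of −0.73 to 0.91. Changes in either direction within that interval are thus compatible with these values, and the interval is not a limit of detection.

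*Pcx* (ENSMUSG00000024892, chr19:4510472-4621752) varied little, with coefficients of variation of 3.48 to 9.83% within groups. The RF.Ctrl mice had 297, 304 and 318 CPM and the RF.SAAR mice 270.5, 288 and 237 CPM, without overlap. In TPM, which are not scaled by TMM factors, these groups overlapped, at 71.4 to 83.4 and 74.7 to 89.2 TPM. The HF.Ctrl mice had 302, 277 and 318 CPM and the HF.SAAR mice 302, 294 and 326 CPM, which overlapped. The regular-fat difference was −0.21 ± 0.10 (adjusted p = 0.370), and the difference over both fat levels was −0.08, with a 95% confidence interval of −0.23 to 0.06. In CPM *Fbp1* (ENSMUSG00000069805, chr13:62864753-62888282) overlapped between the groups of either fat level, at means of 1024 ± 128 CPM in RF.Ctrl, 894 ± 118 in RF.SAAR, 916 ± 83.7 in HF.Ctrl and 1013 ± 92.2 in HF.SAAR (SD, n = 3). In TPM *Fbp1* did not overlap on high fat, at 595 to 668 TPM in HF.Ctrl and 872 to 924 TPM in HF.SAAR. Its difference over both fat levels was −0.03 ± 0.09, with a 95% confidence interval of −0.21 to 0.16. Most *Pcx* TPM, 77.6 to 94.8%, came from the start at 4510472, and transcripts from 4594346 made up 3.298 to 21.4%.

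*Pfkfb1* (ENSMUSG00000025271, chrX:150588229-150643878), the bifunctional enzyme, was counted at 46.8, 42.8 and 28.7 CPM in RF.Ctrl and at 41.3, 50.8 and 34.9 CPM in RF.SAAR. On high fat it stood at 28.4, 36.7 and 28.1 CPM in HF.Ctrl and at 49.0, 55.0 and 39.2 CPM in HF.SAAR. The HF groups did not overlap and the RF groups did. Its high-fat difference was 0.62 ± 0.20 (adjusted p = 0.166), and its regular-fat difference was 0.10 ± 0.20 (adjusted p = 0.909). The high-fat difference passed with library size as the only scaling and with the runs of sample title numbers as a term in the fit (0.61, adjusted p = 0.0127). The start at 150594478 held 63.4 to 83.7% of its TPM, and the start at 150589921 reached at most 0.839 TPM.

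*Slc2a2* (ENSMUSG00000027690, chr3:28697903-28731359) was counted at 321, 315 and 398 CPM in RF.Ctrl and at 305, 194 and 262 CPM in RF.SAAR, without overlap. On high fat it stood at 332, 286 and 379.7 CPM in HF.Ctrl and at 279, 314 and 279 CPM in HF.SAAR, with overlap. The differences were −0.44 ± 0.16 on regular fat (adjusted p = 0.209), −0.19 ± 0.16 on high fat (adjusted p = 0.698) and −0.32 ± 0.11 over both (adjusted p = 0.115). A retained-intron transcript that begins at 28721517 took 33.0 to 51.2% of the *Slc2a2* TPM in the 12 mice.

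*Mlxipl* (ENSMUSG00000005373, chr5:135089890-135138382) was counted at means of 233 ± 11.1 CPM in RF.Ctrl, 202 ± 45.3 in RF.SAAR, 202 ± 26.1 in HF.Ctrl and 219.5 ± 21.1 in HF.SAAR (SD, n = 3). The groups overlapped on either fat level, and the difference over both was −0.04 ± 0.10, with a 95% confidence interval of −0.27 to 0.18. Its main start lay at 135106891. The start 17001 bases upstream, at 135089890, reached at most 4.84 TPM, through 1 short processed transcript, so the level of the isoform known as ChREBPβ could not be read from these tables.

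**Figure D3:**
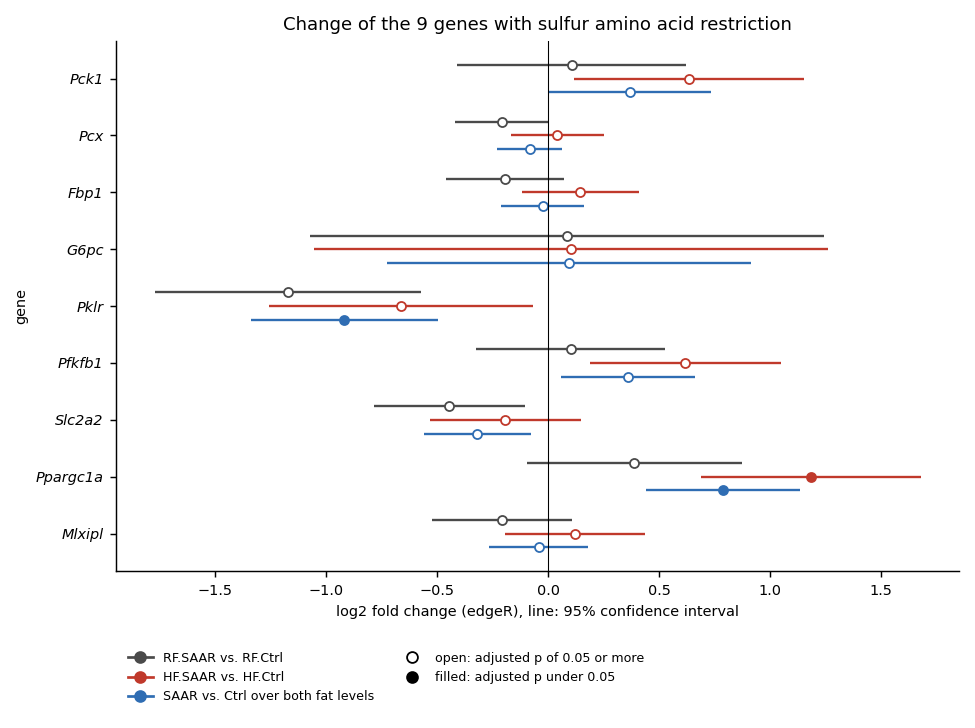
Log2 fold change of the 9 genes with SAAR on regular fat, on high fat and over both. Points are edgeR estimates, lines are 95% confidence intervals, and filled points have an adjusted p under 0.05 over 14670 genes. *Ppargc1a* is filled on high fat (1.18) and over both fat levels (0.79), *Pklr* is filled over both (−0.92), and the *G6pc* intervals are the widest.

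On regular fat, where edgeR called 0 of 9 members, 2 had an unadjusted p under 0.05 (13.6% of all genes did) and DESeq2 called 1 (4.85% of all genes). The mice of the compared groups did not overlap for 3 of 9 members on regular fat (*Pcx*, *Pklr* and *Slc2a2*, all lower) and for 4 of 9 on high fat (*Pck1*, *Pfkfb1* and *Ppargc1a* higher, *Pklr* lower), against 18.2 and 17.9% of all genes. These counts are of CPM. In TPM *Pcx* and *Slc2a2* overlapped on regular fat and *Pck1* did not, and on high fat *Pklr* overlapped and *Fbp1* did not. The median log2 fold change of the members was −0.20 on regular fat, 0.12 on high fat and −0.03 over both, and that of all genes lay within 0.01 of 0.

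The effect of SAAR was compared between fat levels through the interaction. Its value was above 0 for 9 of 9 members, with a median of 0.34 where that of all genes was 0.01, and none passed (1 gene in all, or 0.00682%, passed, and 1 member had an unadjusted p under 0.05, as did 3.15% of all genes). It was above 0 for 8 of 9 with an acinar covariate, for 8 to 9 of 9 with each mouse left out, and for 8 of 9, with a median of 0.14, without the 5 acinar-rich livers. Between HF.Ctrl and RF.Ctrl 9 of 9 values lay below 0, with a median of −0.21 where that of all genes was 0.0016 (1 value was above 0 with no filter, with an acinar covariate or with the title runs as a term, 2 without the acinar-rich livers, 3 without HF.Ctrl 2, and 0 to 1 without each of the other mice). Here 0 of 9 passed, as did 0% of all genes, 1 of 9 had an unadjusted p under 0.05 (3.59% of all genes did), and the mice did not overlap for 2 of 9 (*Pklr* and *Ppargc1a*), against 8.51% of all genes. DESeq2 called 0.209% of genes in that comparison and no member. Between the SAAR groups 8 of 9 values lay above 0 (7 of 9 with library size as the only scaling, 6 of 9 with an acinar covariate, and 7 to 9 of 9 with each mouse left out), none passed (0.0477% of all genes did), and only *Pcx* did not overlap, at a difference of 0.21 ± 0.10 (adjusted p = 0.869), against 10.1% of all genes. These comparisons share groups of mice, so their directions are not independent of each other. The 9 genes were also read in the same mice, so their signs are not separate results, and the share of all genes on each side of 0 is not given. Some values lay close to 0. Between the control groups *G6pc* stood at −0.0024, *Pcx* at −0.034 and *Slc2a2* at −0.053, and in the interaction *G6pc* stood at 0.017. Over both diets, no member passed between HF and RF (0.0409% of all genes did), and for 0 of 9 members did the mice of the fat levels stand apart in the same direction on both the Ctrl and the SAAR diet (0.859% of all genes did).

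The other genes of the pathway were counted from lists of 131 genes, of which 125 were tested. On regular fat 2 rose and 3 fell, on high fat 5 rose and 1 fell, and over both fat levels 8 rose and 6 fell, beside 1.49, 1.97 and 6.92% of all tested genes that passed in these comparisons. The last of these shares is also the one to set beside the counts of each list over both fat levels. None passed in the comparisons of fat level or in the interaction. On regular fat *Pck2* and *Aldoa* rose and *Slc2a5*, *Pdk1* and *Pygl* fell, and on high fat *Pck2*, *Gpi1*, *Gckr*, *Slc16a7* and *Dlat* rose and *Slc2a5* fell. Of these, the calls of *Slc2a5* on regular fat and of *Pck2* and *Gpi1* on high fat held without each mouse in turn, and the others held in 1 (*Pygl*) to 8 (*Pck2*) of 12 fits. The median log2 fold change of the 125 genes was 0.01 on regular fat, 0.06 on high fat and 0.01 over both.

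Of the other gluconeogenic enzymes, 10 of 11 were tested and 1 rose, *Pck2* (ENSMUSG00000040618, chr14:55540266-55551242). On regular fat the Ctrl mice had 3.15, 3.58 and 3.71 CPM and the SAAR mice 5.70, 9.22 and 11.9 CPM. On high fat the Ctrl mice had 3.48, 3.06 and 4.15 CPM and the SAAR mice 13.8, 10.6 and 14.8 CPM. Every SAAR mouse lay above every Ctrl mouse. *Pck2* rose by 1.36 ± 0.24 on regular fat (adjusted p = 0.0138), by 1.88 ± 0.24 on high fat (adjusted p = 0.00114) and by 1.62 ± 0.17 over both (adjusted p = 9.80e-05). Per transcript length its level stayed far under that of *Pck1*, at group means of 1.41 to 6.37 TPM against 630 to 1269 TPM. The regular-fat call was lost without RF.Ctrl 1, RF.Ctrl 2, RF.Ctrl 3 or RF.SAAR 3, at adjusted p values of 0.05004 to 0.0580, and the call over both fat levels held without each mouse and without the acinar-rich livers.

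Among the enzymes shared by glycolysis and gluconeogenesis, 2 of 14 rose over both fat levels. *Aldoa*, aldolase A, rose by 0.71 ± 0.11 (adjusted p = 0.00208), with means of 103 ± 13.9 CPM (RF.Ctrl) and 177 ± 40.7 (RF.SAAR), and of 109 ± 12.1 (HF.Ctrl) and 170.3 ± 12.6 (HF.SAAR). *Gpi1*, glucose-6-phosphate isomerase, rose by 0.37 ± 0.06 (adjusted p = 0.00360). On high fat alone *Gpi1* rose by 0.62 ± 0.09 (adjusted p = 0.00304), from 108 ± 2.91 to 165 ± 12.2 CPM, and its regular-fat difference was 0.13 ± 0.09 (adjusted p = 0.621). Aldolase A is abundant in skeletal muscle, and 12 of 12 muscle markers were found, with summed CPM of 309 to 745 for RF.Ctrl, 391.95 to 1214 for RF.SAAR, 356 to 766 for HF.Ctrl and 359 to 934 for HF.SAAR. These overlapped on either fat level. In RF.Ctrl and in RF.SAAR the mouse with the highest muscle sum also had the highest *Aldoa*, at 119 and 216 CPM. In HF.Ctrl and in HF.SAAR that mouse had 114 and 176 CPM, where the highest *Aldoa* values were 117 and 179 CPM. The part of muscle RNA in the *Aldoa* result was not tested. The symbol *Aldoa* has 2 gene identifiers in the annotation, and the more abundant is given.

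Of the other glycolytic enzymes and their direct regulators, 12 of 13 were tested and 1 passed. *Gckr*, the protein that holds glucokinase in the nucleus, rose on high fat by 0.45 ± 0.11 (adjusted p = 0.0485), from 210.0 ± 23.9 to 288 ± 10.2 CPM. That call stood close to the threshold and held in only 3 of the 12 fits that each left out 1 mouse (without HF.Ctrl 3, RF.SAAR 1 or RF.SAAR 2).

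Of the other sugar and lactate transporters, 10 of 13 were tested. *Slc2a5*, the fructose transporter GLUT5, fell by 1.53 ± 0.23 on regular fat (adjusted p = 0.00485), by 0.99 ± 0.22 on high fat (adjusted p = 0.0362) and by 1.26 ± 0.16 over both (adjusted p = 0.000413). The RF.Ctrl livers held 8.18, 8.80 and 12.3 CPM and the RF.SAAR livers 3.89, 3.18 and 3.03 CPM. The HF.Ctrl livers held 9.01, 9.01 and 11.2 CPM and the HF.SAAR livers 3.49, 4.81 and 6.31 CPM, so the groups did not overlap on either fat level. Its high-fat call was lost without any 1 of HF.Ctrl 1, 2 or 3, HF.SAAR 1 or 2, or RF.Ctrl 2 (adjusted p up to 0.146). The monocarboxylate carriers *Slc16a7* and *Slc16a1*, which move lactate and pyruvate, rose over both fat levels by 0.64 ± 0.12 (adjusted p = 0.00523) and by 0.46 ± 0.13 (adjusted p = 0.0460). The *Slc16a1* difference was 0.66 on regular fat (adjusted p = 0.100) and 0.26 on high fat (adjusted p = 0.633), where the mice overlapped. The *Slc16a1* call held in 3 of 12 fits that each left out 1 mouse, those without HF.Ctrl 3, HF.SAAR 3 or RF.Ctrl 2.

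The transcriptional regulators mostly did not pass. Of 24 tested regulators of gluconeogenesis, 1 fell over both fat levels, *Onecut1* (HNF6), by 1.65 ± 0.36 (adjusted p = 0.0298), a call that held in 5 of 12 fits that each left out 1 mouse (those without HF.Ctrl 1, 2 or 3, HF.SAAR 3 or RF.SAAR 2). Of 11 tested regulators of glycolysis and partners of *Mlxipl*, 1 fell over both fat levels, *Srebf1*, which drives insulin-responsive lipogenic genes, by 0.80 ± 0.16 (adjusted p = 0.0121). *Srebf1* was counted at 103 ± 30.5 CPM in RF.Ctrl, 57.7 ± 6.51 in RF.SAAR, 90.9 ± 23.6 in HF.Ctrl and 53.6 ± 9.97 in HF.SAAR, and its SAAR mice lay below its Ctrl mice on either fat level.

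Of 16 tested genes of pyruvate entry and its fates, *Pdk4* and *Dlat* rose and *Pdk1* fell over both fat levels. *Pdk4*, a kinase that switches off pyruvate dehydrogenase in fasting, rose by 1.97 ± 0.41 (adjusted p = 0.0226), with means of 6.03 ± 1.93 CPM (RF.Ctrl) and 25.2 ± 14.5 (RF.SAAR), and of 5.36 ± 1.18 (HF.Ctrl) and 19.6 ± 12.2 (HF.SAAR). *Pdk1*, a kinase of the same enzyme, fell by 0.47 ± 0.11 (adjusted p = 0.0174), and *Dlat*, a subunit of pyruvate dehydrogenase, rose by 0.36 ± 0.06 (adjusted p = 0.00276). The *Pdk1* difference was −0.69 on regular fat (adjusted p = 0.0359) and −0.24 on high fat (adjusted p = 0.582), where the mice overlapped. The *Pdk4* call was lost without any 1 of RF.Ctrl 1 or 2 or HF.Ctrl 1, 2 or 3 (adjusted p up to 0.0657), and the *Pdk1* call without RF.SAAR 3 (adjusted p = 0.0530).

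In glycogen metabolism 1 of 16 genes passed over both fat levels, *Pygl*, liver glycogen phosphorylase, which fell by 0.32 ± 0.08 (adjusted p = 0.0247) and whose call held in 5 of 12 fits that each left out 1 mouse (without HF.Ctrl 2, HF.SAAR 2, RF.Ctrl 3, RF.SAAR 1 or RF.SAAR 2). The *Pygl* difference was −0.49 on regular fat (adjusted p = 0.0497) and −0.16 on high fat (adjusted p = 0.629), where the mice overlapped. Among 12 tested genes for the entry of fructose and glycerol, *Gk*, glycerol kinase, rose by 0.50 ± 0.10 (adjusted p = 0.00993) and *Aqp9*, the glycerol channel, fell by 0.26 ± 0.07 (adjusted p = 0.0346). The *Aqp9* call held in 2 of those 12 fits (without HF.Ctrl 2 or RF.SAAR 1).

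**Figure D4:**
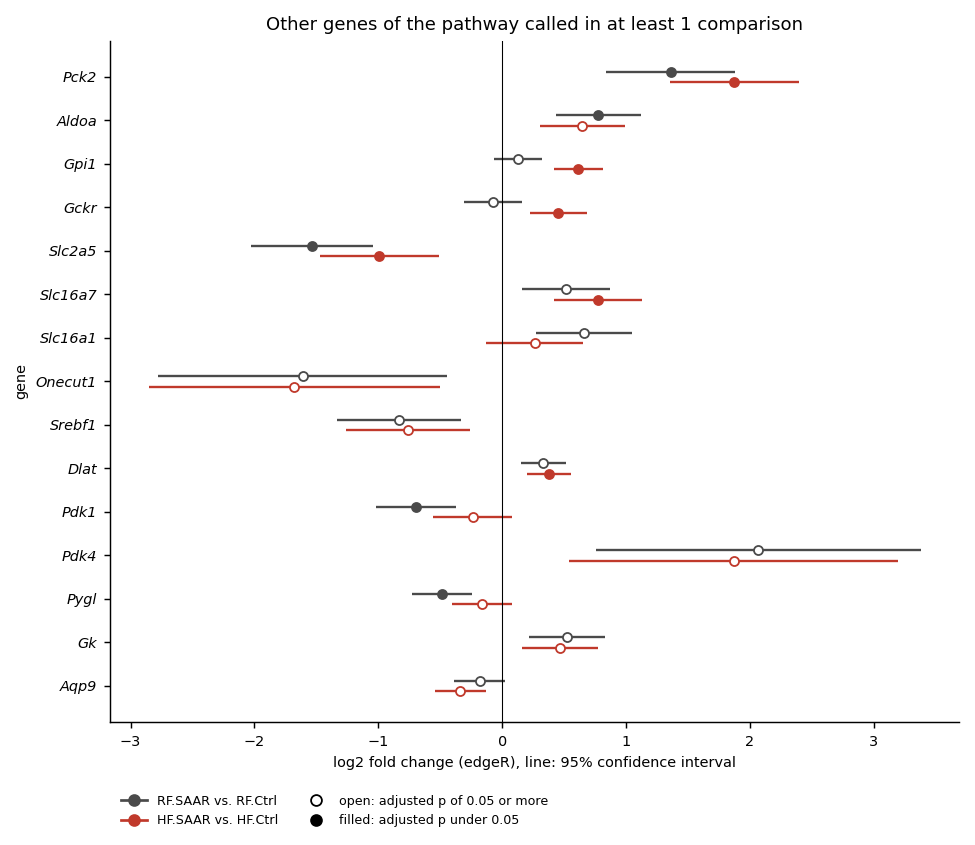
Log2 fold change with SAAR of the 15 other pathway genes that passed in at least 1 comparison, on regular fat and on high fat. Points are edgeR estimates, lines are 95% confidence intervals, and filled points have an adjusted p under 0.05. *Pck2* and *Slc2a5* are the genes filled on both fat levels, in opposite directions.

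Zonation was measured beside the members because gluconeogenesis is a periportal activity. Without *Pck1*, which is itself a periportal marker, the other 9 periportal markers had summed CPM of 4716 to 5142 for RF.Ctrl, 4122 to 4836 for RF.SAAR, 4439 to 4835 for HF.Ctrl and 4321 to 5072 for HF.SAAR, and the groups overlapped on either fat level. Single periportal markers moved in opposite directions. On high fat *Hsd17b13* rose by 0.72 (adjusted p = 0.00135) and *Cyp2f2* fell by 0.48 (adjusted p = 0.0286), while *Pigr* differed by −0.46 without overlap (adjusted p = 0.0875). The sum of 12 pericentral markers was 9629 to 10958 CPM on regular fat and 11881 to 13973 CPM on high fat. The part of zonation in the high-fat values of *Pck1* was not tested.

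The genes most like a member were taken as those with the smallest root mean square difference of log2 CPM, centred on the mean of the 12 mice. For *Pklr* these were *Aacs* (0.31, where *Pklr* itself had an SD of 0.60) and *Adgrv1* (0.33). For *Ppargc1a* they were *Cnst* (0.22, SD 0.49) and *Fmo2* (0.23), and for *Pck1* they were *S100a11* (0.16, SD 0.38) and *Nrarp* (0.20). The nearest gene to *G6pc*, *Zfp354c*, lay 0.31 away where *G6pc* had an SD of 0.54, and the nearest to *Pcx*, *C1rl*, lay 0.06 away where *Pcx* had an SD of 0.12. These distances describe the same 12 libraries.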

How the data were processed

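Liver RNA of 12 mice was sequenced after poly(A) selection, with paired ends. The authors trimmed reads with cutadapt, checked them with FastQC and quantified transcripts with kallisto. The deposited tables give, for each transcript, an estimated count, a TPM value and an effective length. Here, estimated counts of 118489 transcripts were summed by gene through GENCODE M21 (GRCm38) and rounded, and 1673 transcripts without a match (1.08% of counts) were left out. Genes were filtered with filterByExpr and fitted with edgeR 4.0.16 (R 4.3.3, limma 3.58.1; TMM factors, robust quasi-likelihood) over 4 groups of 3 mice, with a common biological coefficient of variation of 0.215. Benjamini-Hochberg adjustment covered 14670 genes, and an adjusted p under 0.05 was called. The scripts were tested on simulated data. Intervals are 95% confidence intervals of the log2 fold change. CPM values use TMM factors, and the TPM values are the deposited ones summed by gene or start site, with starts within 200 bases joined. Comparisons were SAAR against Ctrl at each fat level and over both, high against regular fat within each diet and over both, and the interaction.

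Samples were grouped by their labels. The labels give no replicate numbers, so mice are numbered 1 to 3 in the order of deposit. The sample title numbers form 3 runs with 1 mouse of each of the 4 groups, and no label says what a run is. No pair of libraries within a group was a duplicate. Each mouse is taken as 1 sample, and p-values measure the spread between mice. Alternatives were DESeq2 1.42.0, other scalings and filters, effective length offsets, fits of the compared groups only, pancreatic genes left out or as a covariate, the most abundant transcript, and each mouse left out. The rule for names took all 9 members, every gene of the pathway lists that passed in a comparison (at most 4 a list), at most 3 called marker genes a list where a member was called, and the 2 genes most like each member. The members, the lists and the rule were chosen with earlier results of these data known. The fit without the 5 acinar-rich livers, the fit with the title runs as a term and the ChoRE search were added after seeing the data. Of 10 genes looked up, 10 matched the RefSeq promoter table (GRCm38.p6).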

Additional observations from a re-analysis of the deposited data

How the results depend on the processing

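Mice were not paired in the main fit, because the labels give no replicate numbers. A fit with the 3 runs of title numbers as a term, whose meaning no label gives and which was added after seeing the data, called 0 members on regular fat, 2 on high fat (*Pfkfb1* and *Ppargc1a*) and 3 over both fat levels (*Pfkfb1*, *Pklr* and *Ppargc1a*). The calls of *Ppargc1a* and *Pklr* over both fat levels held under scaling, filter, offset, covariate and DESeq2 alternatives and without each mouse in turn, with adjusted p up to 0.0491. Both were lost with the most abundant transcript alone (0 of 9 members called, *Ppargc1a* adjusted p = 0.0632, *Pklr* adjusted p = 0.0618) and without the 5 acinar-rich livers (chosen after seeing the data), where 1 member, *Pck1*, was called. With library size as the only scaling, 4 members were called over both fat levels (*Pck1*, *Pfkfb1*, *Pklr* and *Ppargc1a*) and 2 on high fat (*Pfkfb1* and *Ppargc1a*). On high fat 0 members were called with effective length offsets, with the most abundant transcript, or without the acinar-rich livers, and 0 to 1 when each mouse was left out. On regular fat DESeq2 called 1 member, and 0 to 1 were called when each mouse was left out. Dropping 5 livers leaves fewer mice to estimate the spread, and the cause of the other changes was not tested. Among the pathway genes called over both fat levels, *Pck2*, *Slc2a5* and *Srebf1* were still called without the acinar-rich livers.

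Of the values printed, those whose direction reversed were all of members that did not pass in that comparison. With library size alone the differences over both fat levels became 0.079 for *Pcx*, 0.14 for *Fbp1* and 0.12 for *Mlxipl*, while that of *Pcx* was 0.0090 with the most abundant transcript. Without the acinar-rich livers the high-fat differences became −0.093 for *Pcx* and −0.15 for *Mlxipl*, and that of *Fbp1* over both fat levels became 0.072. With each mouse left out, *G6pc* ran from −0.15 to 0.70 on regular fat, from −0.27 to 0.49 on high fat and from −0.094 to 0.40 over both. Over both fat levels *Fbp1* ran from −0.078 to 0.020 and *Mlxipl* from −0.14 to 0.021. *Pcx* on high fat ran from −0.013 to 0.086, and on regular fat *Pck1* ran from −0.0086 to 0.19 and *Pfkfb1* from −0.083 to 0.24. Of 728 further values of the members, 55 changed sign and 0 were called. Over all genes, calls on regular fat numbered 218 by edgeR, 591 by DESeq2, 425 with library size alone, 348 with the title runs and 81 without the acinar-rich livers. On high fat they numbered 289 by edgeR, 595 by DESeq2, 719 with library size alone, 410 with the title runs and 190 in a fit of the compared groups alone. Over both fat levels there were 1015, against 2449 with library size alone and 234 without the acinar-rich livers. Depth was not varied in any of these fits, and *Ppargc1a* (6.89 to 22.9 CPM) and *Pck2* (3.06 to 14.8 CPM) were among the genes with few counts.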
